A study of Mus musculus with 10 samples.

Results

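10 genes of innate pattern recognition were followed in tumour-associated macrophages: the surface receptors Tlr1, Tlr2, Tlr4 and Tlr6, the endosomal receptors Tlr7, Tlr8, Tlr9 and Tlr13, the co-receptor Cd14 and the adaptor Myd88. The members were taken by gene symbol, and each of the 10 had a locus of its own among the 46957 loci of every table. The macrophages came from BALB/cJ mice that carried tumours of 4T1, a mouse breast cancer line placed in the mammary fat pad. Live CD45+ cells positive for CD11b and F4/80 and negative for CD8, Ly6C and Ly6G were sorted at harvest on day 14. The 5 vehicle samples came from mice given PBS. The 5 JHU083 samples came from mice given JHU083 at 1 mg/kg from day 7 to day 13, a prodrug of the glutamine antagonist 6-diazo-5-oxo-L-norleucine. The labels do not say whether a sample is 1 mouse or a pool, so p-values measure the spread between these samples, which may be partly technical.

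Toll-like receptors are membrane proteins with an outer domain of leucine-rich repeats that binds microbial or self molecules and an inner TIR domain that recruits adaptors. TLR2 pairs with TLR1 or TLR6 at the cell surface to detect lipopeptides, and TLR4 detects lipopolysaccharide that CD14 hands to it with MD-2. TLR7, TLR8, TLR9 and TLR13 sense nucleic acids inside endosomes: single-stranded RNA for TLR7, unmethylated CpG DNA for TLR9 and bacterial ribosomal RNA for TLR13, while the ligands of mouse TLR8 are less settled. All of these receptors can signal through MYD88, which assembles IRAK kinases and leads to NF-κB and IRF activation.

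The libraries held 11147870 to 14575932 fragments in vehicle and 13638381 to 15740701 in JHU083. For 3 vehicle and 2 JHU083 libraries the tables list the ribosomal RNA loci Rn18s-rs5 and Gm42418 at 0, and in the other libraries these loci took 2.87% to 5.59% of the fragments. The summed level of 8 macrophage markers was higher in every JHU083 sample than in any vehicle sample, at 10680 to 12403 CPM (counts per unit of library size, scaled by TMM) in vehicle and 14266 to 19374 CPM in JHU083. Lyz2 made up most of this sum, with means of 6979 and 10458 CPM. Of the 8 genes, Adgre1, Csf1r, Lyz2 and Mertk passed as higher by edgeR, and Itgam, Ptprc, Cd68 and Fcgr1 did not pass. The summed level of 6 tumour epithelial markers was 263 to 556 CPM in vehicle and 94.7 to 195 CPM in JHU083, and all 6 of these genes were lower in JHU083. The sum of 3 endothelial markers was also below vehicle in every JHU083 sample (122 to 209 CPM against 33.9 to 82.1 CPM), most of it Pecam1, which was lower, while Cdh5 and Kdr did not pass. Of the other lists, 4 of 5 fibroblast markers were lower, and the neutrophil genes S100a8 and S100a9 were lower while Csf3r was higher. The neutrophil genes Retnlg (log2 fold change 0.45), Cxcr2 (0.60) and Mmp8 (-0.41) did not pass, and Ly6g was too low to test. Beside these counts of markers, 18.3% of all tested loci passed as lower and 18.4% as higher. Of 4 plasmacytoid dendritic cell markers, Bst2, which macrophages also express, was lower (263 to 144 CPM, edgeR adjusted p = 0.000111), and with it the sum of the list (308 to 388 CPM against 228 to 267 CPM). Tcf4 did not pass (0.23), and Siglech and Ccr9 were too low to test, with at most 22 fragments in a sample. The sum of 5 conventional dendritic cell markers was above vehicle in every JHU083 sample (5.32 to 6.26 CPM in vehicle against 7.43 to 17.9 CPM), with Cd209a higher by 2.09 (edgeR adjusted p = 0.000364) and no other gene of the list called. The eosinophil gene Siglecf was higher by 0.89 (edgeR adjusted p = 0.0115), no monocyte marker passed, and all 6 T and NK cell markers were too low to test. The B cell genes Ms4a1 and Cd79a were too low to test, with at most 5 fragments in a sample, and Cd79b was higher (0.51, edgeR adjusted p = 0.0498) at means of 2.75 and 3.93 CPM. In sorted cells measured in bulk, fewer cells of a type and less RNA per cell cannot be told apart. Whether these shifts in markers had a part in the results below was not tested.

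All 10 members passed the filter on low counts. In JHU083, 5 of the 10 were higher (Tlr1, Tlr2, Tlr7, Tlr8 and Tlr13), Myd88 was lower, and Tlr4, Tlr6, Tlr9 and Cd14 did not pass the edgeR test at an adjusted p of 0.05. The background was high: 36.7% of the 12501 loci tested passed, 18.4% as higher and 18.3% as lower. These were 2296 loci higher and 2293 lower with TMM scaling, and 1564 and 3141 with plain library-size scaling. Among the loci with an average log2 CPM of at least 3, the range in which all members lie, 39.3% passed, 20.9% as higher and 18.4% as lower. All 5 receptors that passed were higher, and none of the 8 was lower. The median log2 fold change over the 8 receptors was 0.37, and over all tested loci it was 0.011. Over the 8 macrophage markers it was 0.41, with 4 of them higher and 0 lower, so a rise of this size was not particular to the receptors.

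**Figure D1:**
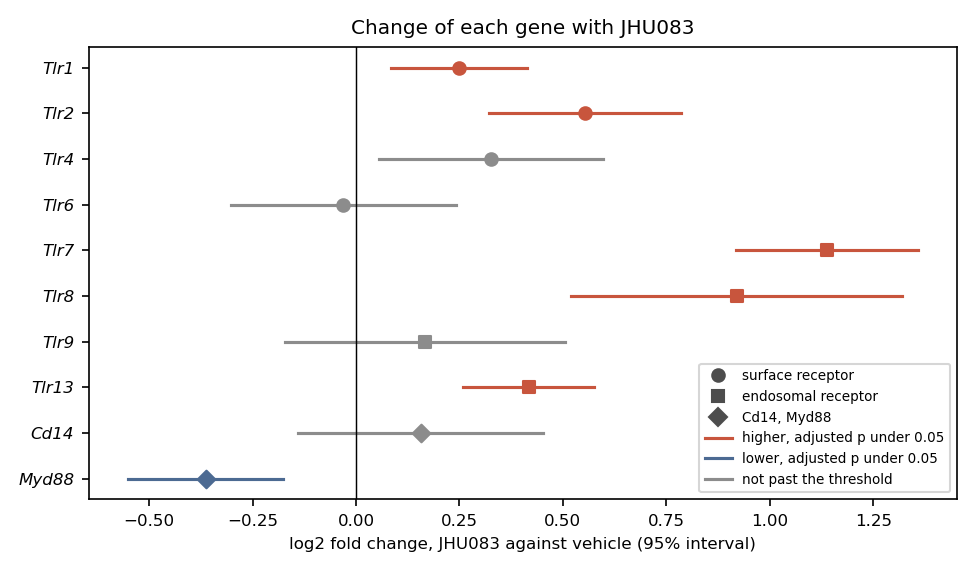
Log2 fold change of each gene in JHU083 against vehicle (horizontal axis), with the 95% interval from the edgeR fit of 5 against 5 samples; circles are surface receptors, squares endosomal receptors and diamonds Cd14 and Myd88. Tlr7 and Tlr8 lie furthest to the right, at 1.137 and 0.92, and Myd88 lies to the left at -0.36.

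Of the surface receptors, Tlr2, the shared partner of the lipopeptide receptors, changed most. Tlr2 (XLOC_023992, chromosome 3, 83836272 to 83841767, minus strand, GRCm38) stood at 337, 325, 296, 293 and 329 CPM in vehicle replicates 1 to 5 and at 617, 384, 451, 434 and 430.5 CPM in JHU083. Every JHU083 sample lay above every vehicle sample, as was so for 11.2% of all tested loci, and JHU083 replicate 1 was far above the other 4. On the log2 scale Tlr2 rose by 0.55 ± 0.11 (SE, edgeR adjusted p = 0.00144), or 1.47-fold, and 0.43 without JHU083 replicate 1. Its promoter window is shown because it belongs to the most changed surface receptor. It runs from 250 bases before to 50 bases after the start site (RefSeq, GRCm38.p6, chr3:83841559-83841858, minus strand, written 5′ to 3′), with matches to the NF-κB consensus in capitals.
Tlr2: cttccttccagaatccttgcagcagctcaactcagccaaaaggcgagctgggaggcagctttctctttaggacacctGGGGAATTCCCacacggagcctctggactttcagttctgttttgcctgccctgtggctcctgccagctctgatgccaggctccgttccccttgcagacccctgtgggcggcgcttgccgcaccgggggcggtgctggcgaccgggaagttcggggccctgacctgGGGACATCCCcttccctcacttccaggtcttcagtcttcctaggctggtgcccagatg
NF-κB is the factor that signalling from these receptors activates. The search covered both strands for 5 motifs, namely the NF-κB consensus, the PU.1 core GAGGAA, the interferon-stimulated response element core (GAAA, any 2 bases and GAAA again), the AP-1 site TGANTCA and the E-box CACGTG. The matches in this window start 173, 172 and 8 bases before the start site, the first 2 overlapping, and the other 4 motifs had no match here. An NF-κB consensus match was present in 8.46% of all 32851 promoter windows, so it is a description of the sequence and not a site shown to be used.

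Tlr1, which forms a heterodimer with TLR2, rose less. Tlr1 (XLOC_029772, chromosome 5, 64924679 to 64933563, minus strand) had 79.3, 83.7, 90.4, 88.7 and 94.1 CPM in vehicle and 96.1, 112, 111, 105 and 93.7 CPM in JHU083. JHU083 replicate 5 fell just below vehicle replicate 5, and the other 4 JHU083 samples were above every vehicle sample. The rise was 0.25 ± 0.077 on the log2 scale (SE, edgeR adjusted p = 0.0214). Tlr1 did not pass with library-size scaling (0.17, adjusted p = 0.0921 with edgeR, where 37.6% of loci passed), with the replicate number as a block (adjusted p = 0.0661, 26.9% of loci), without a filter on low counts (adjusted p = 0.0541), or without vehicle replicate 1 (0.22) or vehicle replicate 2 (0.23).

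Tlr6, the other partner of TLR2, was the lowest receptor and showed no shift. Tlr6 (XLOC_029773, chromosome 5, 64952031 to 64960097, minus strand) had 11.2, 10.2, 8.83, 12.4 and 12.6 CPM in vehicle and 10.8, 11.5, 8.65, 11.5 and 11.5 CPM in JHU083. The groups overlapped, with JHU083 replicate 3 just below the lowest vehicle sample and the other 4 within the vehicle range. Its log2 fold change was -0.031 with a 95% interval from -0.30 to 0.24 (edgeR adjusted p = 0.868), which leaves room for changes of about the size seen in Tlr1. Tlr1 and Tlr6 lie 18467 bases apart and are similar in sequence: 12.3% of the 50-base words in Tlr6 transcripts and 13.6% of those in Tlr1 transcripts occur in the other gene, so fragments from these stretches could be split between them.

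Tlr4, the lipopolysaccharide receptor, was at the border of the test. Tlr4 (XLOC_025328, chromosome 4, 66827584 to 66930284, plus strand) had 76.5, 93.8, 111, 85.9 and 76.2 CPM in vehicle and 117, 110.5, 81.3, 120 and 127 CPM in JHU083. Of the JHU083 samples, 3 were above every vehicle sample, replicate 2 was close under the highest vehicle sample, and replicate 3 was within the vehicle range. It differed by 0.33 ± 0.13 on the log2 scale (SE, 95% interval 0.056 to 0.60, edgeR adjusted p = 0.0557). The adjusted p was 0.0497 by DESeq2, which called 39.1% of loci. On simulated counts in which few loci were changed, DESeq2 made more false calls than edgeR. By edgeR the adjusted p was 0.00409 without JHU083 replicate 3, where the log2 fold change was 0.42. Without vehicle replicate 3 it was also 0.42 (edgeR adjusted p = 0.015). With any other sample left out, Tlr4 did not pass (edgeR adjusted p from 0.0774 to 0.133). Nor did it pass with library-size scaling (edgeR adjusted p = 0.167) or with the replicate number as a block (adjusted p = 0.141). It passed without a filter on low counts (edgeR adjusted p = 0.0184).

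**Figure D2:**
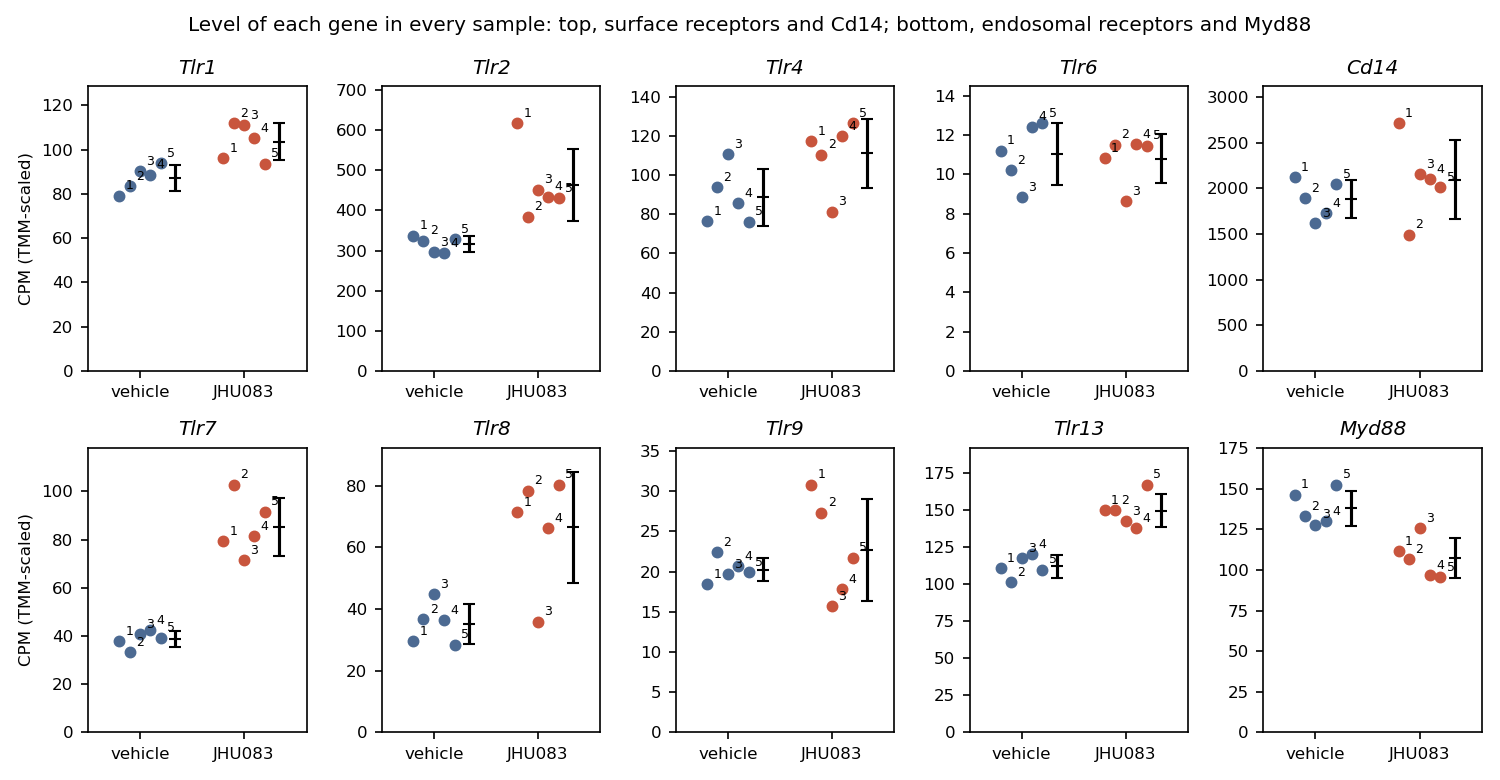
CPM of each gene (vertical axis, from 0) in the 5 vehicle and 5 JHU083 samples, numbered by replicate, with the mean and SD in black at the right of each group. The groups are apart for Tlr2, Tlr7, Tlr13 and Myd88, and JHU083 replicate 3 sits among the vehicle samples for Tlr8 and Tlr4.

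Among the endosomal receptors, Tlr7 showed the largest change of all 10 genes. Tlr7, the receptor for single-stranded RNA (XLOC_045377, chromosome X, 167304929 to 167330558, minus strand), had 38.0, 33.4, 40.8, 42.6 and 39.3 CPM in vehicle and 79.3, 103, 71.6, 81.5 and 91.7 CPM in JHU083. The lowest JHU083 sample was well above the highest vehicle sample. Tlr7 rose by 1.137 ± 0.10 on the log2 scale (SE, edgeR adjusted p = 4.78e-06), or 2.20-fold. An increase of at least 1 on the log2 scale that passed the test was found for 2.1% of all tested loci.

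Tlr8, the neighbour of Tlr7, rose in 4 of the 5 JHU083 samples. Tlr8 (XLOC_045376, chromosome X, 167242696 to 167264329, minus strand) lies 40599 bases from Tlr7 on the same strand. It had 29.5, 36.6, 44.7, 36.4 and 28.4 CPM in vehicle and 71.3, 78.3, 35.9, 66.3 and 80.3 CPM in JHU083. JHU083 replicate 3 was inside the vehicle range while the other 4 samples were above all of it. Tlr8 rose by 0.92 ± 0.19 on the log2 scale (SE, edgeR adjusted p = 0.0018) and by 1.08 without that sample. In the same sample Tlr7 was still 0.88 above the vehicle mean on the log2 CPM scale, whereas Tlr8 was 0.051 above it.

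Tlr13, the receptor for bacterial ribosomal RNA, which humans lack, rose by a smaller and even amount. Tlr13 (XLOC_043671, chromosome X, 106143204 to 106160493, plus strand) had 111, 101, 118, 120 and 110 CPM in vehicle and 150, 150, 143, 138 and 167 CPM in JHU083. The groups did not overlap. The difference was 0.42 ± 0.074 on the log2 scale (SE, edgeR adjusted p = 0.000677), or 1.34-fold.

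Tlr9, the receptor for CpG DNA, did not pass the test, and its JHU083 values lay on both sides of the vehicle values. Tlr9 (XLOC_041489, chromosome 9, 106222598 to 106226883, plus strand) had 18.5, 22.5, 19.7, 20.7 and 19.96 CPM in vehicle and 30.8, 27.3, 15.7, 17.8 and 21.7 CPM in JHU083. JHU083 replicates 1 and 2 were above every vehicle sample and replicates 3 and 4 below every vehicle sample. The SD was 1.47 CPM in vehicle and 6.34 CPM in JHU083 (n = 5). Its log2 fold change was 0.17 with a 95% interval from -0.17 to 0.51 (edgeR adjusted p = 0.432).

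The promoter windows of Tlr8 and Tlr13 are shown as those of the endosomal receptors on chromosome X that were higher and have a window (RefSeq, GRCm38.p6, chrX:167264280-167264579 on the minus strand and chrX:106143025-106143324 on the plus strand). Capitals mark matches to the PU.1 core, PU.1 being the factor that sets up the macrophage lineage.
Tlr8: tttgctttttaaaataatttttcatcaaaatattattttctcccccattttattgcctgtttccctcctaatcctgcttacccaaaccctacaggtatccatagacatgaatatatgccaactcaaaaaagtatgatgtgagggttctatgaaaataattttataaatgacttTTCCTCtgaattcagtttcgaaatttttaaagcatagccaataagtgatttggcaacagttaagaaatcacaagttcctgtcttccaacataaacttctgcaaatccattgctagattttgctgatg
Tlr13: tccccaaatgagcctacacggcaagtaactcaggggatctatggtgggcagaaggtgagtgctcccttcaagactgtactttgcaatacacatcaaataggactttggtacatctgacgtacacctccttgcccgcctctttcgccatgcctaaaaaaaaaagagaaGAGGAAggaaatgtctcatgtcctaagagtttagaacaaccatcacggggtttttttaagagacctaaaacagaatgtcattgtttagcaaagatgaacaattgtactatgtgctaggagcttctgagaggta
The match starts 77 bases before the start site in Tlr8 and 83 bases before it in Tlr13, and neither window held any of the other 4 motifs. The PU.1 core occurred in 28.3% of all windows. It also occurred in windows of Tlr1 and Tlr9, of which Tlr9 did not pass the test. RefSeq windows were matched for 7 of the 10 members, all but Tlr4, Tlr7 and Cd14.

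Cd14, the co-receptor that delivers lipopolysaccharide, had the highest level per transcript length of all members and did not pass the test. Cd14 (XLOC_017131, chromosome 18, 36725067 to 36726798, minus strand) had 2122, 1889, 1621, 1728 and 2041 CPM in vehicle and 2712, 1493, 2157, 2103 and 2009 CPM in JHU083. JHU083 held both the highest and the lowest sample. The difference was 0.16 on the log2 scale with a 95% interval from -0.14 to 0.45 (edgeR adjusted p = 0.398).

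Myd88, the adaptor that all 8 receptors can use, fell. Myd88 (XLOC_042699, chromosome 9, 119335934 to 119341411, minus strand) had 146, 133, 128, 130 and 152 CPM in vehicle and 112, 107, 126, 96.7 and 95.4 CPM in JHU083. Every JHU083 sample was below every vehicle sample, as was so for 11.1% of all tested loci, with JHU083 replicate 3 only just so. Myd88 fell by 0.36 ± 0.087 on the log2 scale (SE, edgeR adjusted p = 0.00539), or 0.777-fold. In GENCODE M21, Acaa1a, which encodes a peroxisomal thiolase, overlaps Myd88 on the other strand, and 7.42% of the 50-base words of Myd88 transcripts occur in Acaa1a transcripts. The labels name no strand-marking kit, so fragments of the overlap cannot be told apart, and Acaa1a also fell, by 0.37 ± 0.12 on the log2 scale (SE, edgeR adjusted p = 0.0306). Slc22a14 overlaps Myd88 on the same strand and had at most 2 fragments in a sample. The part of the overlap in the Myd88 result was not tested.

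The Myd88 promoter window is shown because it belongs to the only member that fell (RefSeq, GRCm38.p6, chr9:119339969-119340268, minus strand). Capitals mark its match to the interferon-stimulated response element core.
Myd88: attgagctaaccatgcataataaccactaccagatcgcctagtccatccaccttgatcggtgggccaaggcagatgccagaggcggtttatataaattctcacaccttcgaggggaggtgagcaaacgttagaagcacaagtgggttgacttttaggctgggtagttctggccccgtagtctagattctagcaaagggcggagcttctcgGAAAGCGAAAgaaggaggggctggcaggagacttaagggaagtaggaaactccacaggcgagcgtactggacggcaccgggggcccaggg
The match starts 40 bases before the start site, and none of the other 4 motifs was found in this window. The whole window lies inside the GENCODE span of Myd88 given above, which reaches 119341411. The RefSeq start site used here is thus not the outermost start of the gene in GENCODE. This core was present in 3.44% of all windows, and among the 7 members with a window also in that of Tlr6.

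Surface and endosomal receptors were then set side by side. Of the 4 surface receptors, 2 passed as higher and the median log2 fold change was 0.29. Of the 4 endosomal receptors, 3 passed as higher and the median was 0.67. Over all loci 18.4% passed as higher, and 20.9% of those with an average log2 CPM of at least 3. On the log2 CPM scale, the mean of the endosomal genes minus the mean of the surface genes was -0.83, -0.81, -0.66, -0.71 and -0.90 in vehicle replicates 1 to 5 and -0.38, -0.18, -0.65, -0.56 and -0.28 in JHU083. All JHU083 samples were above all vehicle samples, but JHU083 replicate 3 exceeded vehicle replicate 3 by less than 0.01. The group means differed by 0.37, against a pooled SD of 0.15 between samples. Tlr7 and Tlr8 had larger fold changes than any surface receptor, while those of Tlr13 (0.42) and Tlr9 (0.17) were within the surface range of -0.031 to 0.55. The contrast depends on which receptors form the classes. With Tlr3 (0.0077) and Tlr12 (-1.11) added to the endosomal class and Tlr5 (0.51) to the surface class, a choice made after the data were seen, the mean log2 fold change was 0.26 over 6 endosomal and 0.32 over 5 surface receptors, and the difference was -0.066 instead of 0.39. No test was made over these lists, because their members were chosen with earlier results of these data known.

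**Figure D3:**
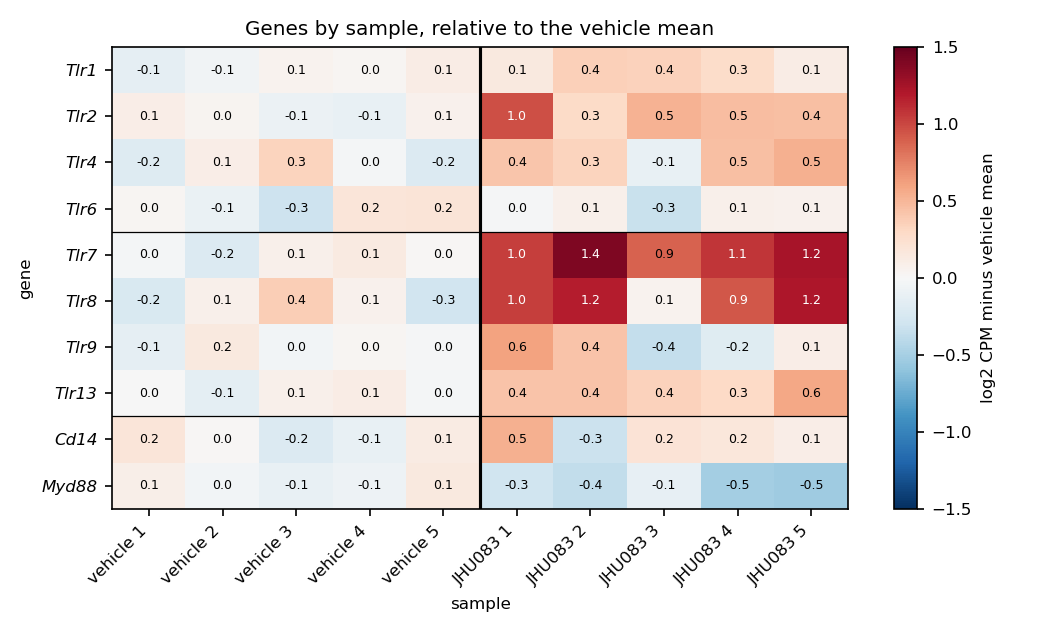
Log2 CPM of each gene (rows) in each sample (columns) minus the vehicle mean of that gene; red is above and blue below, and black lines part the groups and the gene classes. Tlr7 is raised in all 5 JHU083 samples, Tlr8 in 4 of them, and Tlr9 moves in both directions.

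Levels were compared between genes with the deposited FPKM, which is per transcript length. In vehicle, Cd14 stood at 1272 ± 139 FPKM, Tlr2 at 103 ± 6.498, Myd88 at 72.7 ± 5.16, Tlr1 at 29.4 ± 2.08, Tlr13 at 26.7 ± 1.74, Tlr4 at 21.6 ± 3.51, Tlr8 at 12.1 ± 2.22, Tlr7 at 10.8 ± 1.05, Tlr9 at 5.69 ± 0.43 and Tlr6 at 3.70 ± 0.95 (SD, n = 5). Of neighbours in this order, the vehicle samples overlapped for Tlr1 and Tlr13, for Tlr13 and Tlr4, for Tlr8 and Tlr7 and for Tlr9 and Tlr6, and were apart for the others. In JHU083 the level of Tlr7 was 25.2 ± 5.45 FPKM, that of Tlr8 21.8 ± 5.33 and that of Tlr4 27.2 ± 4.26 (SD, n = 5), so that these 3 receptors stood at overlapping levels, whereas every vehicle value of Tlr7 had been below every vehicle value of Tlr4. Tlr2 remained the leading receptor at 153 ± 29.7 FPKM and Tlr6 the lowest at 3.87 ± 0.68.

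For some members the deposited count and FPKM did not keep a fixed ratio between samples. The ratio of deposited count to FPKM was nearly constant between samples for Tlr2 (41.2 to 41.3), Tlr9, Tlr13 and Cd14. It ranged from 22.3 to 51.0 for Tlr6, from 36.5 to 52.6 for Tlr7 and from 35.2 to 43.9 for Tlr8. Tlr6 was highest in FPKM in vehicle replicate 3 (5.36), the vehicle library in which it had the fewest fragments (117). Tlr7 likewise had its highest vehicle FPKM in replicate 2 (12.5), the vehicle library with its fewest fragments (439). In JHU083 its lowest ratio was 41.0, in replicate 2, so its FPKM levels and the receptor shares built on them carry this uncertainty. On the log2(FPKM + 1) scale, limma gave Tlr7 a difference of 1.135, Tlr8 of 0.78 and Tlr6 of 0.062.

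Summed over the 8 receptors, the endosomal genes made up 24.9%, 25.3%, 27.2%, 27.8% and 24.1% of the receptor FPKM in vehicle and 25.2%, 34.5%, 25.9%, 28.2% and 31.7% in JHU083. The shares overlapped between groups. Tlr2 alone took 48.5 ± 3.24% in vehicle and 49.3 ± 5.67% in JHU083 (SD, n = 5). Myd88 stood at 36.3, 32.5, 30.6, 33.5 and 37.4 FPKM per 100 FPKM of receptor in vehicle and at 16.9, 19.6, 23.5, 18.2 and 16.4 in JHU083. Every JHU083 sample was below every vehicle sample on this measure. These ratios are descriptions of transcript levels and were not tested.

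**Figure D4:**
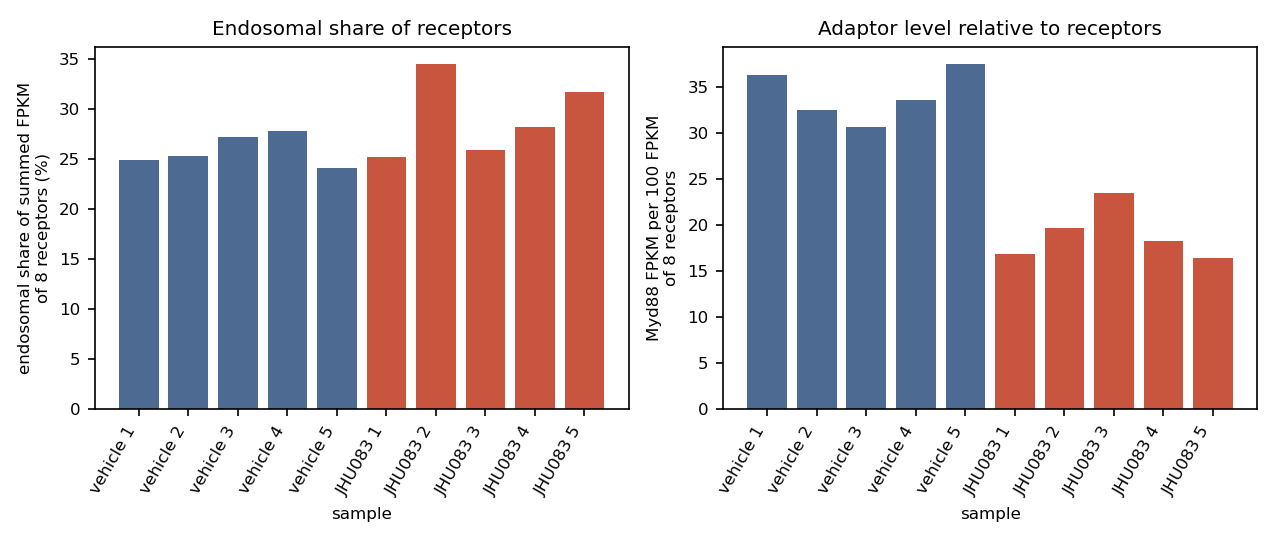
Left, share of the summed FPKM of the 8 receptors held by the 4 endosomal genes (%, from 0) in each sample; right, Myd88 FPKM per 100 FPKM of the 8 receptors; blue bars are vehicle and red bars JHU083, 1 bar per sample. The shares overlap between groups, and the Myd88 ratio is at least 30.6 in vehicle and at most 23.5 in JHU083.

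Within groups the members did not vary as a block. Over the 45 pairs of members, correlations were computed after group means were subtracted. For Tlr4 and Tlr8 the correlation was high but did not pass adjustment by either measure (Pearson r = 0.92 and Spearman rho = 0.83 over the 10 samples, permutation p = 0.0031 and 0.0087, adjusted p = 0.071 and 0.13). Without the 2 samples farthest from the median of Tlr4, r was 0.84. Tlr2 and Cd14 passed by rho and not by r (r = 0.91, rho = 0.95, permutation p = 0.0058 and 0.0013, adjusted p = 0.076 and 0.031), with r = 0.82 without the 2 farthest samples. Tlr4 and Myd88, with opposite signs, also passed by rho and not by r (r = -0.87, rho = -0.88, permutation p = 0.0014 for both, adjusted p = 0.064 and 0.031), with r = -0.79 without the 2 farthest samples. By Pearson's r, 0 of the 45 pairs passed at an adjusted p of 0.05. JHU083 replicate 3 had the lowest JHU083 level of 5 receptors (Tlr4, Tlr6, Tlr7, Tlr8 and Tlr9) and the highest of Myd88, and JHU083 replicate 1 had the highest level of Tlr2, Tlr9 and Cd14. The libraries with and without the ribosomal RNA loci number 5 each, and no correlation was computed within them.

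The treatment difference was recomputed within those sets of libraries. The libraries at 0 were vehicle replicates 2, 4 and 5 and JHU083 replicates 1 and 3. Each set thus set replicates 2, 4 and 5 of a group against replicates 1 and 3 of the other. Within groups, pairs among replicates 2, 4 and 5 differed by a chi-square per locus of 5.88 to 13.8, and replicates 1 and 3 by 31.9 to 33.2. Within a set, treatment and this split cannot be told apart. Among the 3 vehicle and 2 JHU083 libraries with these loci at 0, Tlr7 (0.98, edgeR adjusted p = 0.0049) and Tlr2 (0.76, adjusted p = 0.0151) passed, while Tlr8 (0.67), Tlr13 (0.41), Tlr1 (0.22) and Myd88 (-0.22) did not, and 8.79% of all loci tested passed there. Among the other 2 vehicle and 3 JHU083 libraries, Tlr7 (1.21), Tlr8 (1.01), Tlr13 (0.40), Tlr2 (0.38) and Myd88 (-0.47) passed, Tlr1 (0.28, edgeR adjusted p = 0.132) did not, and 21.7% of all loci passed. Each of the 6 members called over all samples kept its direction in both sets. The log2 fold change of Cd14 was 0.37 in the former and -0.012 in the latter.

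Genes whose levels followed the members most closely were named by the highest r of log2 CPM over the 10 samples, among 10126 loci. For Tlr7 these were Nceh1 (r = 0.992), Mdfic (0.989) and Gab2 (0.989), and 528 loci had r over 0.9. For Myd88 they were Csk (0.986), Exosc7 (0.984) and Igsf8 (0.982), with 460 loci over 0.9. For Tlr2 they were Plekho2 (0.968), Coq10b (0.957) and Fmnl3 (0.953), with 42 loci over 0.9. These values include the difference between the groups and are descriptions.

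Of 75 other genes of the pathway, 71 were tested, 16 were higher and 12 lower in JHU083, beside 18.4% and 18.3% of all loci. The median log2 fold change was 0.053. Among 4 further Toll-like receptors, Tlr12, an endosomal sensor of profilin, fell by 1.11 ± 0.15 on the log2 scale (SE, edgeR adjusted p = 9.25e-05), from 29.7 to 13.7 CPM. Tlr3, the receptor for double-stranded RNA that signals without MYD88, had a log2 fold change of 0.0077 (edgeR adjusted p = 0.970), and Tlr5, the flagellin receptor, of 0.51 (adjusted p = 0.083). Tlr11 was too low to test, with at most 4 fragments in a sample.

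Of 5 partners of the surface receptors, 4 were higher, beside 18.4% of all loci. The scavenger receptor Cd36, which can act with TLR2, rose by 1.58 on the log2 scale (edgeR adjusted p = 0.000635), the lipopolysaccharide-binding protein gene Lbp by 0.85 (adjusted p = 0.00642), Ly96, which encodes the TLR4 partner MD-2, by 0.65 (adjusted p = 0.00728) and Ly86, which encodes MD-1, by 0.35 (adjusted p = 0.0109). For each of these 4 genes every JHU083 sample was above every vehicle sample, as for 11.2% of all loci. Lbp was low, with at most 34 fragments in a vehicle and 66 in a JHU083 sample. Cd180, the receptor that MD-1 binds, had a log2 fold change of -0.23 (edgeR adjusted p = 0.183).

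Of the 11 genes for trafficking and processing of endosomal receptors, 3 were higher and 2 lower, near the 18.4% and 18.3% of all loci. Unc93b1, the chaperone that carries nucleic-acid receptors to endosomes, stood at 1015 CPM in vehicle and 1079 CPM in JHU083, with a log2 fold change of 0.0885 (edgeR adjusted p = 0.547). The cathepsin gene Ctsb rose by 0.45 (adjusted p = 0.00492) and Slc15a4, an endolysosomal histidine transporter needed for TLR7 and TLR9 signalling, by 0.38 (adjusted p = 0.00323). Ctsl rose by 0.28 (edgeR adjusted p = 0.0356). Ctsk, the cathepsin best known from osteoclasts, fell by 1.71 (edgeR adjusted p = 0.00029). Slc15a3, a related transporter, fell by 0.24 (adjusted p = 0.0472).

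Among signalling components no change that passed was above 0.52 on the log2 scale. Of 4 adaptors tested, 1 was higher, beside 18.4% of all loci. This was Ticam2, whose locus also lists Tmed7, with a rise of 0.27 (edgeR adjusted p = 0.0103), and Sarm1 was too low to test. Of 16 kinases and ligases, 4 were higher and 1 lower, beside 18.4% and 18.3% of all loci. Tab2, a scaffold of the TAK1 kinase, rose by 0.52 (adjusted p = 0.000705), the ubiquitin ligase gene Peli1 by 0.51 (adjusted p = 0.00052) and the kinase gene Tbk1 by 0.41 (adjusted p = 0.0032). Ube2n, which builds the ubiquitin chains of this pathway, fell by 0.30 (edgeR adjusted p = 0.00826). The IRAK genes that MYD88 recruits did not pass: Irak4 had a log2 fold change of 0.11, Irak1 of 0.053 and Irak2 of 0.22. The locus of Irak1 lists 3 gene symbols, so its value is not of Irak1 alone.

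Of 5 transcription factors 1 was lower, near the 18.3% of all loci, and none was higher. This was Irf7, which drives type I interferon genes, falling by 0.94 on the log2 scale from 274 to 143 CPM (edgeR adjusted p = 8.84e-05). Of 10 negative regulators, 2 were higher and 2 lower, near the 18.4% and 18.3% of all loci. Socs1 fell by 1.35 (edgeR adjusted p = 5.17e-05) and Sigirr by 0.79 (adjusted p = 0.00342), while Rnf216 rose by 0.36 (adjusted p = 0.00951) and Tollip by 0.23 (adjusted p = 0.0114).

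Of 19 genes that these receptors can induce, 17 were tested, 5 were lower and 2 higher, beside 18.3% and 18.4% of all loci. Cxcl10 fell by 1.79 (edgeR adjusted p = 2.78e-05), the inducible nitric oxide synthase gene Nos2 by 1.68 (adjusted p = 6.34e-06), Acod1, which makes itaconate, by 1.64 (adjusted p = 0.000173) and Il6 by 0.80 (adjusted p = 0.00507). In each of the first 3, all JHU083 samples were below all vehicle samples, as for 11.1% of all loci. Cxcl1 also fell, and Tnf and Ccl5 rose. Il12a and Ifnb1 were too low to test. Several of these genes are expressed by other cells as well, and the fall of the epithelial markers given above ran along the same groups. Its part in these values was not tested.

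**Figure D5:**
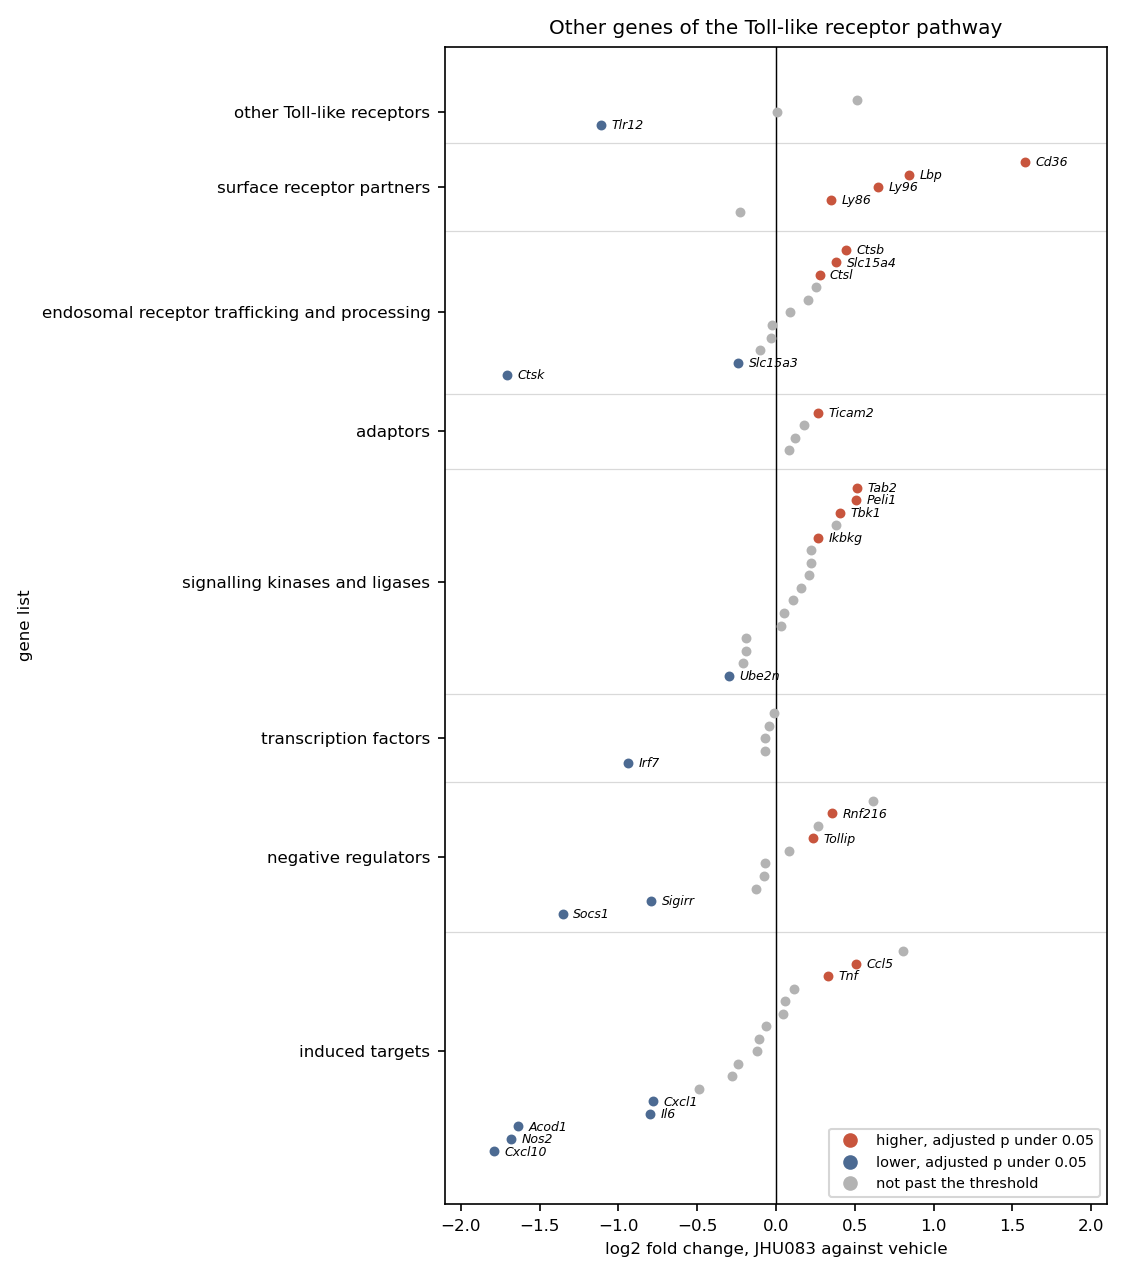
Log2 fold change in JHU083 against vehicle (horizontal axis) for the 71 tested genes of 8 lists of the pathway, 1 point per gene; red is higher and blue lower at an adjusted p under 0.05, grey did not pass, and genes that passed are named. Surface receptor partners lie mostly right of 0, and the largest falls are among induced targets, with Ctsk, Socs1, Tlr12 and Irf7.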

How the data were processed

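RNA was sequenced from sorted tumour-associated macrophages, 5 vehicle and 5 JHU083 samples. Per the labels' protocols, libraries were made from poly(A)+ RNA with a kit for which no strand marking is named. Per the submitters' processing notes, bcl2fastq 2.17.1.14, FastQC 0.11.2, TopHat2 2.1.1 and GRCm38 were used; the counting program and annotation are not given in the sources used here. The deposited column headed as raw counts holds expected counts that are whole multiples of a step of 0.888 to 1.17 per sample. Dividing by the step gave whole fragments (within 0.02) for 99.1% to 99.4% of positive values, an inference from the values, and these were rounded. The other deposited column was taken as FPKM from its values and used for levels between genes. Per the file headers it is only called normalized.

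Loci were filtered with filterByExpr, scaled by TMM and compared in edgeR 4.0.16 (R 4.3.3) by its quasi-likelihood test, with Benjamini-Hochberg adjustment over all 12501 tested loci at 0.05. The SE is the absolute log2 fold change divided by the square root of F. Log2 CPM has a prior count of 2. Counts limit precision through depth, which was 11147870 to 15740701 fragments. On simulated counts for 12382 loci, the edgeR test recovered 83% of genes changed by 1 and 35% of genes changed by 0.5 on the log2 scale, with 6.35% false calls, and DESeq2 recovered 87% and 44% with 13.8% false calls. As alternatives, results were recomputed with DESeq2 1.42.0, with voom and limma 3.58.1, with limma on log2 FPKM with pseudocounts of 1 and 0.1, other scalings and filters, deposited counts rounded, the ribosomal RNA loci left out or as a covariate, sets of libraries, a replicate block and leaving out each sample.

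Correlations used 100000 permutations within groups. Positions come from GENCODE M21 (GRCm38) and promoter windows from RefSeq (GRCm38.p6). All 10 members are named. From each pathway list up to 4 genes with the largest changes that passed are named, with those too low to test. Other genes were named after their values were seen. The members, lists and motifs were chosen with earlier results of these data known. The labels number samples 1 to 5 in both groups without saying that mice were paired, so the reported fit has no block.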

Additional observations from a re-analysis of the deposited data

Results flagged for a closer look

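In the 20 groups of 5 CPM values checked, 2 samples lay far from the rest of their group, where about 1 would be flagged by chance. JHU083 replicate 1 had 617 CPM of Tlr2 against 451 CPM in the next sample, a gap of 0.711 of the group's range against a critical value of 0.71, and of 0.66 on the log2 scale. JHU083 replicate 3 had 8.65 CPM of Tlr6 against 10.8 CPM in the next sample, a gap of 0.757 of the range.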

How the results depend on the processing

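Tlr2 and Tlr7 passed as higher in all 15 alternatives and in all 10 fits that each left out a sample. The following changed, and the cause was not tested unless fewer samples are named. Tlr1 lost its call with library-size scaling (0.17), without a filter (0.25), with the replicate block (0.25) and within the libraries with the ribosomal RNA loci at 0 (0.22) and above 0 (0.28), each with fewer samples. Tlr4 passed with DESeq2 and without a filter (both 0.32). Within the libraries at 0, Tlr8 (0.67), Tlr13 (0.41) and Myd88 (-0.22) did not pass, 2 members were higher and 0 lower (edgeR), with 532 loci higher and 586 lower, and 4 pathway genes higher and 7 lower. Within those above 0, 1274 loci and 7 pathway genes were higher. Library-size scaling left 10 pathway genes higher and moved the share of calls that were higher from 50.03% to 33.2%. Directions turned for differences that had not passed: Tlr6 was 0.19 and Cd14 -0.012 in the libraries above 0, and Tlr6 was 0.062 and 0.079 on log2 FPKM with pseudocounts of 1 and 0.1.

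With 1 sample left out, 4 to 6 members were higher and 1 lower, Tlr1 ranged from 0.22 to 0.29, Tlr4 from 0.27 to 0.42, Tlr6 from -0.10 to 0.041, Tlr9 from 0.031 to 0.28 and Cd14 from 0.045 to 0.26 (both lowest without JHU083 replicate 1), and 13 to 22 pathway genes were higher. The correlations of same-numbered samples gave no sign of pairing (-0.57 to 0.09). In both groups, though, the pairs closest by chi-square per locus were those among replicates 2, 4 and 5, and the reason was not tested. The block changed the call of no member but Tlr1, and with it 1612 loci were higher and 1757 lower. The endosomal minus surface difference stayed between 0.31 and 0.43 in these alternatives and was -0.066 when Tlr3, Tlr12 and Tlr5 were added to their classes, which the members added account for. Depth limits the low genes: Tlr6 had 116 to 175 fragments per sample.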
